A study of Mus musculus with 8 samples.

Results

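The 9 genes described here encode components and regulators of the complement system, and they are 9 of the 20057 genes measured in tumor endothelial cells of B16-F10 melanoma. They comprise the C1 protease genes C1ra, C1s1 and C1s2, the convertase genes C4b, C2, Cfb and C3, and the regulator genes Serping1 and Cd59a. All 9 symbols were present in the data. The genes were selected on measured values of the comparison between agonistic CD40 mAb and isotype, so that their differences between the groups are given as a description and carry no test.

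RNA was sequenced from CD45-CD31+ cells sorted from subcutaneous tumors of male C57BL/6 mice, which were implanted at 8 weeks of age with 250000 cells of B16-F10, a mouse melanoma line. Of the 8 mice, 4 received the agonistic CD40 mAb FGK4.5 and 4 received the isotype antibody 2A3, a rat IgG2a. Both groups were given 30 µg in each of 2 injections next to the tumor, on days 13 and 16, and per the labels the tumors were taken 1 day after the last injection. Each mouse gave 1 library, named below by its mouse ID: 5N, 6L, 6R and 10N for agonistic CD40 mAb, and 5L, 7N, 8N and 9L for isotype. All tumors came from 1 melanoma line and grew in hosts with their own immune cells, some of which bear CD40.

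Complement is a cascade of plasma and tissue proteins that marks cells and debris for removal, attracts leukocytes and can open pores in membranes. In the classical pathway C1q binds its target and the proteases C1r and C1s are activated in turn, after which C1s cleaves C4 and C2 into a convertase. In the alternative pathway factor B joins cleaved C3 to form a second kind of convertase, and both kinds cleave C3. Liver cells supply most complement proteins of plasma, and endothelial cells, fibroblasts and macrophages also make several of them, in particular after exposure to interferons and other cytokines.

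The value of a gene is its normalized read count, which is the number of reads on the gene divided by a size factor of the library. The libraries held 12512772 to 64938728 reads on genes with agonistic CD40 mAb and 2971689 to 35583141 with isotype, so that 1 read counted for 0.118 normalized reads in 5N, the deepest, but for 2.44 in 5L, the shallowest. All 10 endothelial markers were detected in every library, with a summed level of 37885 to 55996 normalized reads with agonistic CD40 mAb and 33636 to 46437 with isotype. Transcripts of other cells were abundant in the same libraries: the 8 fibroblast markers summed to 130540 to 261053 and 93876 to 242775, the 7 mural markers to 15824 to 26957 and 11835 to 38384, and the 7 melanoma markers to 35745 to 60850 and 38674 to 93734. Library 5L stood apart, with the lowest level of 7 of the 8 fibroblast markers and the highest level of all 7 melanoma markers. T-cell and NK-cell markers were at or near 0, with Cd3d at 0 in all libraries, and the hepatocyte markers Alb and Ttr were at 0 as well. In bulk samples of this kind, fewer cells of a type and less RNA per cell cannot be told apart.

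The genes fall into a cluster on chromosome 6, a cluster on chromosome 17 and 3 separate loci (positions from GENCODE M21, build mm10). On chromosome 6, C1ra (chr6:124512405-124523443, plus strand), C1s1 (chr6:124530345-124542359, minus strand) and C1s2 (chr6:124624625-124636085, minus strand) are neighbors. On chromosome 17, C4b (chr17:34728380-34743882), Cfb (chr17:34856374-34862518) and C2 (chr17:34862604-34898265) lie on the minus strand within the MHC class III region. C3 lies elsewhere on the same chromosome (chr17:57203970-57228136, minus strand), and Serping1 (chr2:84765387-84775444, minus strand) and Cd59a (chr2:104095801-104115354, plus strand) lie on chromosome 2.

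C1s1 and C1s2 are near-identical copies, and the sequence that tells them apart is shown here because reads of 1 gene could be counted for the other. Their coding sequences of 2082 bases are 95.7% identical. Of the 50-base windows of C1s1 transcripts, 21.8% also occur in C1s2, and of those of C1s2, 26.9% also occur in C1s1. The stretch below is from coding bases 1876 to 1947 in the transcripts of GENCODE M21 and encodes the surroundings of the active-site serine of the protease. Capitals mark the 7 bases that differ among the 72 shown.
C1s1: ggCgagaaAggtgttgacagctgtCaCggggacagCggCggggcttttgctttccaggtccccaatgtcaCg
C1s2: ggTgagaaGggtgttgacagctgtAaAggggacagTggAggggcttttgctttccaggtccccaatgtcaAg

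RefSeq promoters (GRCm38.p6, 250 bases before to 50 after the start) were matched to 5 of the 9 genes. Entries for C2, C4b, Cfb and Serping1 were missing. The promoters were searched on both strands for a GAS motif bound by STAT factors (TTCNNNGAA), an ISRE bound by interferon-regulated factors (GAAA, any 2 bases, GAAA), a C/EBP motif (TTNNGNAA) and an NF-κB motif. The 3 promoters below are shown since they held the most matches or the only match of their kind, and capitals mark the matches. Positions count from the start site, with the first transcribed base as 1. The start of C1ra differs between the sources, as GENCODE begins the gene at 124512405, so that most of its RefSeq window lies inside the GENCODE gene.
C3 (chr17:57228087-57228386, minus strand): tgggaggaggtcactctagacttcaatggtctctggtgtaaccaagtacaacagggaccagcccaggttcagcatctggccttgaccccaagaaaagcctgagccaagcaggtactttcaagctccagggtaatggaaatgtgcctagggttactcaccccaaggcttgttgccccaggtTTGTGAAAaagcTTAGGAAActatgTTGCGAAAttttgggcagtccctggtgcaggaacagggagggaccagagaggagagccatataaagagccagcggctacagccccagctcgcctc
C1ra (chr6:124512371-124512670, plus strand): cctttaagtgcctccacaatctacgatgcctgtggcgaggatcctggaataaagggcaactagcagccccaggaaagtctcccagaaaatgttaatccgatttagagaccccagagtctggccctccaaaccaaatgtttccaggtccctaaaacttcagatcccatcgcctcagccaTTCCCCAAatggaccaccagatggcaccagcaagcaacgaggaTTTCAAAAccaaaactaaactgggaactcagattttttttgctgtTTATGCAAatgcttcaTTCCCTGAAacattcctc
Cd59a (chr2:104095551-104095850, plus strand): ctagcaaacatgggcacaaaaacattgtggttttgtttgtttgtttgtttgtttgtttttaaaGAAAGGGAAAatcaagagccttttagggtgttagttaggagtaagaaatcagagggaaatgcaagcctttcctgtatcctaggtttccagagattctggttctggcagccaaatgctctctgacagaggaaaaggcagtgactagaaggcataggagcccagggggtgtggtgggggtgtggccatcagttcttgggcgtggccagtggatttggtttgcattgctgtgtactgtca

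The C3 promoter held 3 C/EBP matches, which begin at -70, -58 and -45. The C1ra promoter held 3 C/EBP matches, at -72, -29 and 17, and 1 GAS match, TTCCCTGAA at 33. The Cd59a promoter held 1 ISRE match, GAAAGGGAAA at -187. A C/EBP match also occurred at 11 in C1s2 and at -242 and -52 in 1 of the C1s1 promoters and at -90 in the other. No NF-κB match was found in these windows. Of all 32851 RefSeq promoters, 40.7% held a C/EBP match and 3.60% held 3 or more, 8.30% held a GAS match, 3.44% an ISRE match and 4.51% an NF-κB match. No match overlapped another kind of match in the promoters shown, and a match says only that the letters are present.

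The mean of every one of the 9 genes was higher with agonistic CD40 mAb than with isotype, from 1.06-fold for Cd59a to 2.55-fold for C3 among the 8 genes tested, whose mean was above 10 normalized reads in at least 1 group. A ratio of means of at least 1.5 was reached by 5 of the 8 genes tested, beside 2.75% of all genes tested, and by C1s2. The study called a gene changed when its means differed by a factor of 1.5 or more and its p, before adjustment, was no larger than 0.05. By this threshold 4 of the 8 genes tested were past it as higher (C1ra, C4b, Cfb and C3) and 0 as lower. Across all 12969 genes tested, 1.28% were past it as higher and 0.239% as lower. In 3 of the 8 genes tested (C2, Cfb and C3) all libraries of agonistic CD40 mAb lay above all isotype libraries, which was so for 1.09% of all genes tested, and it was also so for C1s2, which was not tested. Since this contrast was used to choose the genes, nothing follows from these counts. The plot of normalized reads by library shows each value.

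**Figure D1:**
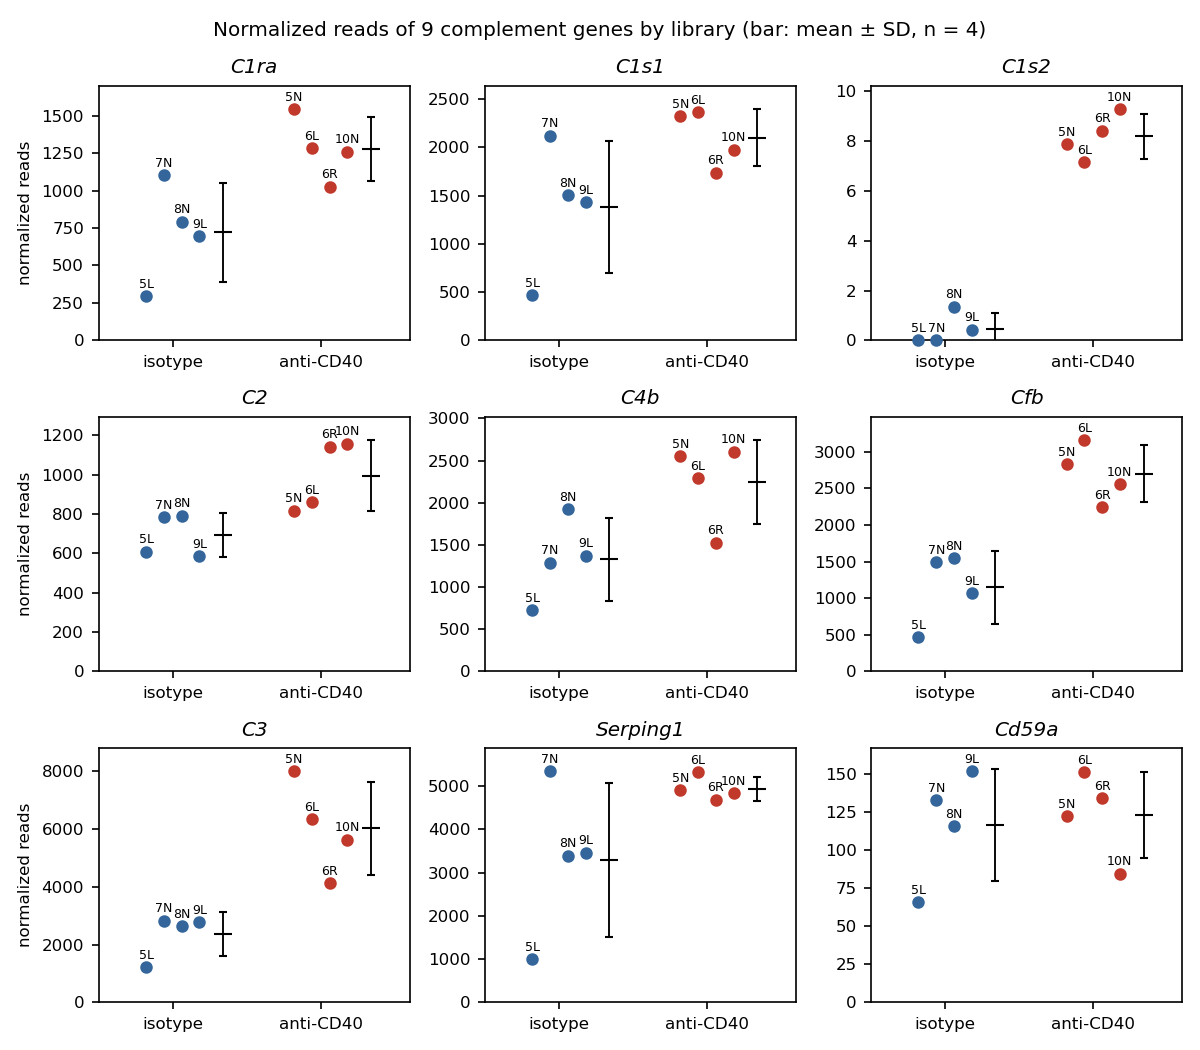
Normalized reads (vertical axis) of the 9 complement genes in each library, by group, with the mean and SD of 4 libraries beside the points. C1s2, C2, Cfb and C3 have no overlap between the groups, and library 5L is the lowest of all for C1ra, C1s1, C4b, Cfb, C3, Serping1 and Cd59a.

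C1ra and C1s1 encode the proteases of the C1 complex, and their values moved together from library to library. C1ra measured 1543, 1281, 1025 and 1260 normalized reads in 5N, 6L, 6R and 10N, against 296, 1102, 792 and 694 in 5L, 7N, 8N and 9L. The groups overlapped, with 7N above 6R. The mean was 1277 ± 212 with agonistic CD40 mAb and 721 ± 332 with isotype (SD, n = 4 each), a ratio of 1.77 and a log2 difference of 0.96 ± 0.33 (SE). Without library 5L the ratio was 1.48, which is below the threshold of 1.5.

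C1s1 measured 2321, 2363, 1738 and 1975 normalized reads with agonistic CD40 mAb and 472, 2122, 1506 and 1435 with isotype. Isotype library 7N lay above 6R and 10N, so that the groups overlapped. The ratio of means was 1.52, with a log2 difference of 0.78 ± 0.37 (SE), and it was 1.24 without 5L.

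C1s2, the second copy of the C1s gene, was measured at a far lower level. It had 7.89, 7.17, 8.42 and 9.29 normalized reads with agonistic CD40 mAb, from 116 reads in all. In the isotype libraries it had 0 in 5L and 7N, 1.36 in 8N and 0.433 in 9L, from 3 reads in all. The groups did not overlap. The ratio of means was 18.3, and it ran from 13.7 to 56.7 when 1 library was left out, with the highest value without 8N. With the reads of each group pooled, the ratio was 16.4, and 67 of the 116 reads with agonistic CD40 mAb came from 5N. In 5L and 7N a count of 0 allows up to 7.33 and 7.14 normalized reads (3 reads), so that the contrast rests mainly on 8N and 9L. C1s1 per kilobase of exon was 176 to 281 times C1s2 in the libraries of agonistic CD40 mAb and 941 and 2817 times in 8N and 9L. With both group means under 10, C1s2 was not among the genes tested.

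The convertase genes include the gene with the largest ratio among the 8 tested, C3, the component on which all pathways converge. C3 measured 8010, 6341, 4137 and 5632 normalized reads with agonistic CD40 mAb and 1217, 2826, 2641 and 2773 with isotype. All 4 libraries of agonistic CD40 mAb were above all 4 isotype libraries, and the isotype values were close to each other except for 5L. The mean was 6030 ± 1608 against 2364 ± 769 (SD, n = 4 each), a ratio of 2.55 and a log2 difference of 1.39 ± 0.28 (SE). The ratio was 2.2 without 5L, and no overlap arose.

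Cfb encodes factor B, the protease of the alternative-pathway convertase. It measured 2827, 3159, 2248 and 2557 normalized reads with agonistic CD40 mAb and 472, 1492, 1550 and 1071 with isotype. The lowest library of agonistic CD40 mAb, 6R, was above the highest isotype library, 8N. The mean was 2698 ± 388 against 1146 ± 498 (SD, n = 4 each), a ratio of 2.35 and a log2 difference of 1.36 ± 0.32 (SE). Without 5L the ratio was 1.97.

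C2 encodes the corresponding protease of the classical pathway, and it differed from the others in its spread. C2 measured 817, 860, 1143 and 1158 normalized reads with agonistic CD40 mAb and 609, 785, 792 and 585 with isotype. The groups did not overlap, although 5N lay only just above 8N, and 9L, not 5L, was the lowest library. The ratio of means was 1.44 and the log2 difference 0.52 ± 0.16 (SE), and the ratio was 1.38 without 5L.

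C4b encodes C4, which C1s cleaves and which anchors the classical convertase to a surface. It measured 2555, 2290, 1526 and 2605 normalized reads with agonistic CD40 mAb and 726, 1289, 1922 and 1371 with isotype. Isotype library 8N lay above 6R. The ratio of means was 1.69 and the log2 difference 0.81 ± 0.27 (SE). The ratio was 1.47 without 5L, below the threshold.

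Of the regulators, Serping1 encodes C1 inhibitor, which inactivates C1r and C1s. It measured 4908, 5331, 4689 and 4845 normalized reads with agonistic CD40 mAb and 1000, 5348, 3391 and 3462 with isotype. The values with agonistic CD40 mAb were close together, and the highest value of all was in isotype library 7N. The mean was 4943 ± 275 against 3300 ± 1782 (SD, n = 4 each), a ratio of 1.498, just under the threshold, and a log2 difference of 0.81 ± 0.40 (SE). Without 5L the ratio was 1.22.

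Cd59a encodes CD59, a membrane-anchored protein that blocks the assembly of the membrane attack complex. It measured 122, 152, 134 and 84.8 normalized reads with agonistic CD40 mAb and 66.0, 133, 116 and 152 with isotype. The ranges lay within each other almost entirely, and the log2 difference was 0.11 ± 0.28 (SE). Its ratio of means was 1.06, and 0.922 without 5L, where the direction turned.

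Library 5L was the single lowest library for 7 of the 9 genes. Its nearest isotype neighbor was 3.39 times as high for Serping1, 3.04 times for C1s1, 2.35 times for C1ra, 2.27 times for Cfb, 2.17 times for C3, 1.78 times for C4b and 1.75 times for Cd59a. The count of genes past the threshold as higher was 2 (Cfb and C3) without 5L and 7 (all but Cd59a among the 8 tested) without 7N, the isotype library with the highest C1ra, C1s1 and Serping1. In these fits 1.24% and 1.67% of all genes tested were past it as higher. The median log2 difference of the 8 genes was 0.81, beside 0.0046 over all genes tested, and without 5L it was 0.50, beside -0.0095. The 4 genes without overlap (C1s2, C2, Cfb and C3) were the same 4 without 5L, where 2% of all genes tested had no overlap in this direction.

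**Figure D2:**
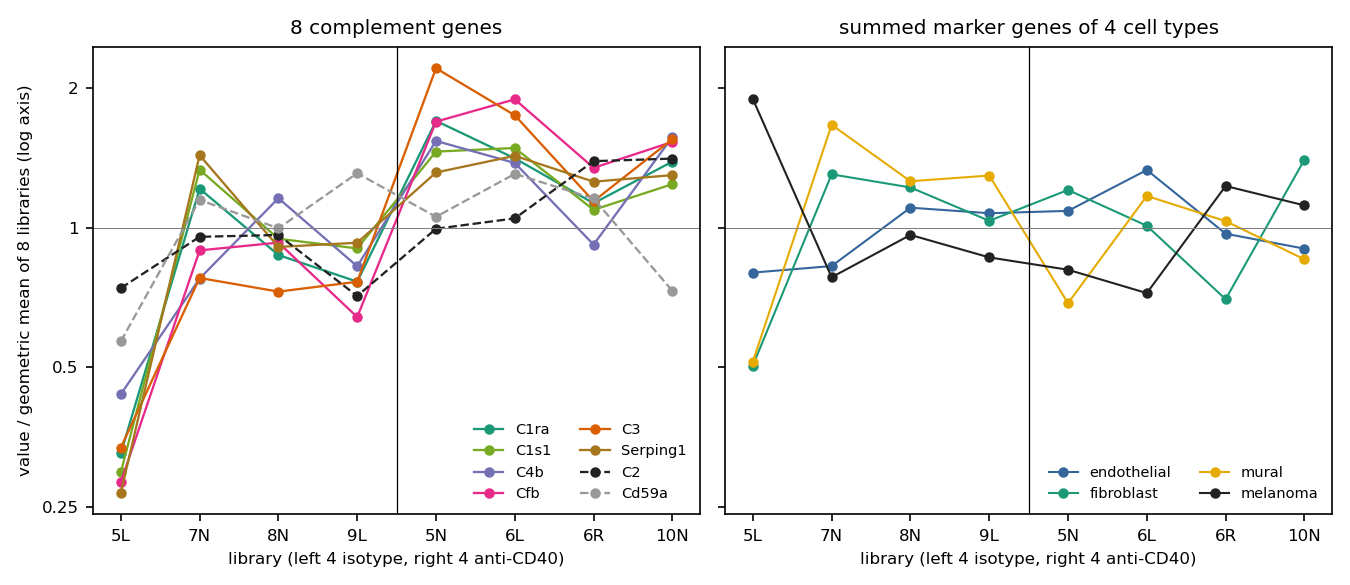
Left, 8 complement genes, and right, the summed markers of endothelial, fibroblast, mural and melanoma cells, each divided by its geometric mean over the 8 libraries (log axis), with the isotype libraries on the left of each panel. Library 5L is the lowest point for the endothelial, fibroblast and mural sums and for every gene but C2, and the highest for the melanoma sum.

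Fibroblasts also make complement proteins, and 5L was the lowest library for 7 of the 9 genes and for 7 of the 8 fibroblast markers. Whether the genes and these markers vary together over the other libraries was not tested. The summed level of the 8 fibroblast markers was 1.06 times as high with agonistic CD40 mAb as with isotype and 0.910 times without 5L, and the groups overlapped. Most of this sum is Col1a1, Col1a2 and Col3a1, at 79249, 64740 and 100144 of 261053 in 10N. The quotients below are thus mainly relative to these collagen genes, and division by the other fibroblast markers was not examined. When each gene was divided by the fibroblast sum of its library, all libraries of agonistic CD40 mAb lay above all isotype libraries for C1s2, Cfb and C3, as before the division, and also for C1ra and C4b, which had overlapped before it, while C2, separate before it, overlapped after it. Of the 8 genes tested this makes 4, and after the same division 0.555% of all 12969 genes tested had no overlap in this direction, a share from which nothing is read. For C3 the quotient was 21.6 to 35.7 per 1000 with agonistic CD40 mAb and 11.6 to 14.4 with isotype, a ratio of 2.42. For Cfb it was 9.80 to 17.2 against 5.02 to 6.82, a ratio of 2.40. The quotients of C1s1, Serping1 and Cd59a overlapped between the groups before and after it. The melanoma sum was highest in 5L, 93734 normalized reads, and the part of tumor-cell transcripts in these differences was not tested.

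**Figure D3:**
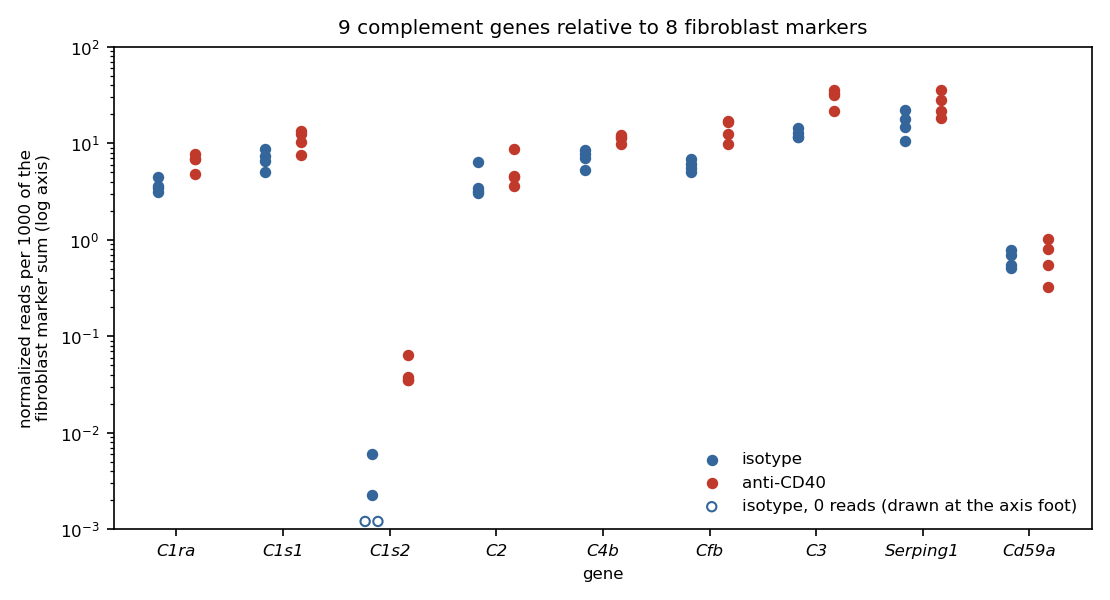
Normalized reads of the 9 complement genes per 1000 of the summed fibroblast markers of the same library (log axis), 4 libraries a group. The groups are separate for C1ra, C1s2, C4b, Cfb and C3 and overlap for C1s1, C2, Serping1 and Cd59a, where the undivided values were separate for C1s2, C2, Cfb and C3.

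The 9 genes together took 0.221% to 0.302% of all normalized reads with agonistic CD40 mAb (mean 0.264%) and 0.0669% to 0.184% with isotype (mean 0.140%). The levels of different genes were compared per kilobase of annotated exon. In the isotype libraries Serping1 was the highest, at 1419 ± 766 normalized reads per kilobase (SD, n = 4), and stood at the 98.7th percentile of the 12550 genes tested that have a length. C3 followed with 460 ± 149, C1s1 with 442 ± 218, Cfb with 406 ± 176, C1ra with 242 ± 112, C4b with 233 ± 86.0, C2 with 179 ± 28.7 and Cd59a with 64.5 ± 20.4. C1s2 was at 0.169 ± 0.241. The ranges of neighbors in this order overlapped in the isotype group except between C2 and Cd59a and between Cd59a and C1s2. Within a library, the neighbors stood in this order in 8 of 8 libraries for Serping1 over C3, Cfb over C1ra, C2 over Cd59a and Cd59a over C1s2, but in only 2 of 8 for C1s1 over Cfb and in 4 of 8 for C1ra over C4b.

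With agonistic CD40 mAb, Serping1 remained highest at 2126 ± 118 per kilobase and C3 second at 1172 ± 313. Cfb, at 955 ± 137, had a higher mean than C1s1, at 671 ± 94.9, while with isotype the means stood the other way and Cfb was above C1s1 in 2 of 4 libraries.

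**Figure D4:**
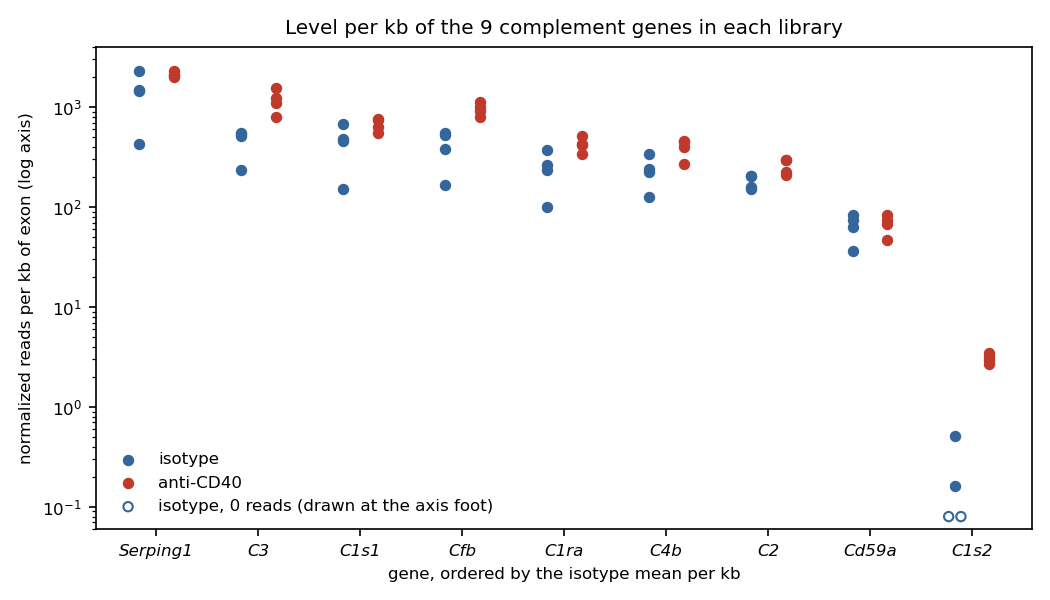
Normalized reads per kilobase of exon (log axis) of the 9 complement genes in each library, ordered by the isotype mean, with open circles for 0 reads. Serping1 is the highest and C1s2 the lowest in both groups, and Cfb and C1s1 overlap with isotype.

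Ratios between genes of the same library do not depend on its size factor. C1ra to C1s1, the proteases of the same complex, stayed between 0.508 and 0.698 per kilobase in all 8 libraries, 5L included. Serping1 to C1s1, an inhibitor and its target, stayed between 2.85 and 3.63. C3 to Cfb ranged from 0.936 to 1.56, with overlap of the groups. Cfb to C2 was 2.70 to 5.03 with agonistic CD40 mAb and 1.06 to 2.68 with isotype, without overlap, although the lowest and highest of these nearly met. C3 to C4b was 2.39 to 3.47 against 1.52 to 2.43, with overlap.

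The genes whose profiles over the 8 libraries were most like that of C3 were Gm17757, Aim1, Gm18853, Gbp7 and Cfb, by the mean absolute difference of centered log2 values, at 0.19 to 0.23 beside a median of 0.71 over 12968 genes. Gbp7, a guanylate-binding protein gene of the interferon response, had a mean of 1170 ± 147 normalized reads with agonistic CD40 mAb and 513 ± 191 with isotype (SD, n = 4 each). Of the other complement genes, C1ra was in place 6 of this order, C4b 11, C1s1 31, Serping1 76, C2 460 and Cd59a 2426. The genes most like C1s1 were Serping1, Cp, Ms4a4d, Trim12c and Mnda, at 0.10 to 0.13 beside a median of 0.52, and C1ra was in place 7. Cp encodes the copper protein ceruloplasmin. All these profiles share the libraries and their depth, and 5L contributes to each. The difference between the groups is also part of each profile, and the complement genes were chosen on it. Near places of these genes in the 2 orders were thus favored in advance, and shared regulation was not tested.

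Reads of several genes could also belong to copies. C1rb, a copy of C1ra with 98.0% identity in the coding sequence, occurs in 48.0% of the 50-base windows of C1ra, and it was at 4.43 normalized reads with agonistic CD40 mAb and 2.39 with isotype. C4a, the copy of C4b, occurs in 34.6% of its windows and was at 8.50 and 9.62. Cd59b shares 3.87% of the windows of Cd59a and was at 0.623 and 4.07. Exons of the read-through gene Gm20547 on the same strand cover 79.5% of Cfb exons and 42.8% of C2 exons. On the opposite strand, Gm16567 covers 18.4% of C1s1 exons and Zbtb12 covers 4.16% of C2 exons, and the library kit does not keep the strand. Gm20547 and Gm16567 have no value in the data table, so how reads in these overlaps were assigned could not be read from it. C3 and Serping1 shared no window with another gene.

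The other genes of complement were examined as a wider list of 48 genes, of which 43 were in the data, 5 of these at 0 in all libraries, and 18 had a mean above 10 in at least 1 group. The genes described above, which were chosen on this same contrast, are not in the list. Its counts and medians therefore cannot tell whether a difference is confined to those genes. None of the 18 was past the threshold in either direction by limma: 0 were higher and 0 lower, beside 1.28% and 0.239% of all genes tested. By limma 0 were at p of 0.05 or less before adjustment, and edgeR and DESeq2 on the recovered reads also gave 0 at that p. The log2 difference was positive in 15 of 18, beside 51.3% of all genes tested, with a median of 0.39 beside 0.0046 over all genes. Without 5L the median of the list was 0.14. Cfd, C8g and Itgam were among the 18 only through their mean with agonistic CD40 mAb, as their isotype mean was below 10, so that the filter favored a higher value in that group. The lowest p was 0.0612, for Itgam, with an adjusted p of 1.00 by limma.

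Of the classical pathway, 4 genes were tested and 0 passed. C1qa and C1qb, which encode chains of the recognition protein C1q, averaged 36.3 ± 12.7 and 40.9 ± 9.18 normalized reads with agonistic CD40 mAb and 24.5 ± 9.33 and 29.9 ± 17.1 with isotype (SD, n = 4 each). All C1q genes belong to the macrophage marker list too, whose sum was 365 to 584 against 240 to 549 and of whose 10 genes only Mrc1 passed the threshold, as higher. The part of macrophage transcripts in the C1q values was not tested. C1qc, the gene of the remaining C1q chain, which was named after its values had been seen, went the other way, with 18.3 ± 4.23 against 20.2 ± 8.29 (SD, n = 4 each) and a log2 difference of -0.06 ± 0.39 (SE). C1rl, a relative of C1r, was at 41.1 and 41.3. C1qb passed the threshold in a fit without 9L. Masp1, a protease that starts the lectin pathway, was the only lectin-pathway gene tested, at 21.8 ± 9.40 against 15.7 ± 7.34 (SD, n = 4 each).

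Of the alternative pathway, Cfp encodes properdin, which stabilizes its convertase, and Cfd encodes factor D, which cleaves factor B. Cfp averaged 36.9 ± 9.62 normalized reads with agonistic CD40 mAb and 41.9 ± 17.7 with isotype (SD, n = 4 each), a log2 difference of -0.11 ± 0.35 (SE). Cfd was at 3.89, 2.26, 1.8 and 73.7 with agonistic CD40 mAb and 0, 0, 6.81 and 11.9 with isotype. Its high mean with agonistic CD40 mAb thus came from library 10N alone, and the exact permutation test of the group means gave p = 0.714.

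Of the terminal pathway, whose products form the membrane pore, C7 and C8g were tested. C8g measured 7.42, 16.6, 9.63 and 9.87 normalized reads with agonistic CD40 mAb and 7.33, 7.14, 6.81 and 5.42 with isotype. It was the only one of the 18 whose groups did not overlap, with 5N just above 5L, beside 1.09% of all genes tested. It was tested only because its mean with agonistic CD40 mAb was above 10 (10.9 against 6.67 with isotype, the latter from 36 reads), and it left the genes tested without library 6L. The exact permutation test gave p = 0.0286, the smallest the design allows, and limma gave p = 0.201 with an adjusted p of 1.00, while limma without the trend gave p = 0.0294, by which C8g passed the threshold as higher. It did not pass under any other alternative in which it was tested. C7 averaged 15.7 ± 14.4 against 14.0 ± 11.4 (SD, n = 4 each), and its ratio of 1.12 became 0.686 without 5N, where the direction turned, and 1.71 without 7N.

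None of the soluble regulators tested passed. Clu, the gene of clusterin, which binds the nascent pore, averaged 642 ± 187 and 592 ± 135 normalized reads, and Vtn, the gene of vitronectin, 85.0 ± 26.3 and 82.4 ± 26.0 (SD, n = 4 each, agonistic CD40 mAb first). The differences of both were smaller than the spread between libraries.

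The membrane regulators tested were Cr1l, Cd55 and Cd46, which protect host cells from convertases, and none passed. Cr1l, which encodes the rodent regulator Crry, was at 452 ± 43.1 normalized reads with agonistic CD40 mAb and 428 ± 78.9 with isotype (SD, n = 4 each), a log2 difference of 0.09 ± 0.15 (SE). Cd55 was at 97.7 ± 43.1 and 75.7 ± 36.0, and Cd46 at 15.2 ± 9.29 and 10.5 ± 12.5 (SD, n = 4 each). The Cd46 ratio of 1.44 became 3.35 without 7N, a fit in which Cd46 passed the threshold. Of the receptors, C3ar1, the receptor for the C3a fragment, was at 18.2 ± 4.11 and 13.2 ± 7.26, and Itgb2, the shared chain of the leukocyte integrins, at 44.8 ± 10.5 and 47.0 ± 20.1 (SD, n = 4 each). Itgam, which pairs with Itgb2 as the receptor for bound C3 fragments on myeloid cells, measured 12, 16.2, 24.7 and 13.9 with agonistic CD40 mAb and 2.44, 14.3, 4.08 and 12.1 with isotype. Its log2 difference was 1.15 ± 0.55 (SE), and it entered the test only through the mean with agonistic CD40 mAb, 16.7 against 8.23, with p = 0.143 by the exact permutation test. Itgam passed the threshold in limma without the trend, in a fit without 7N and in a fit without 9L.

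**Figure D5:**
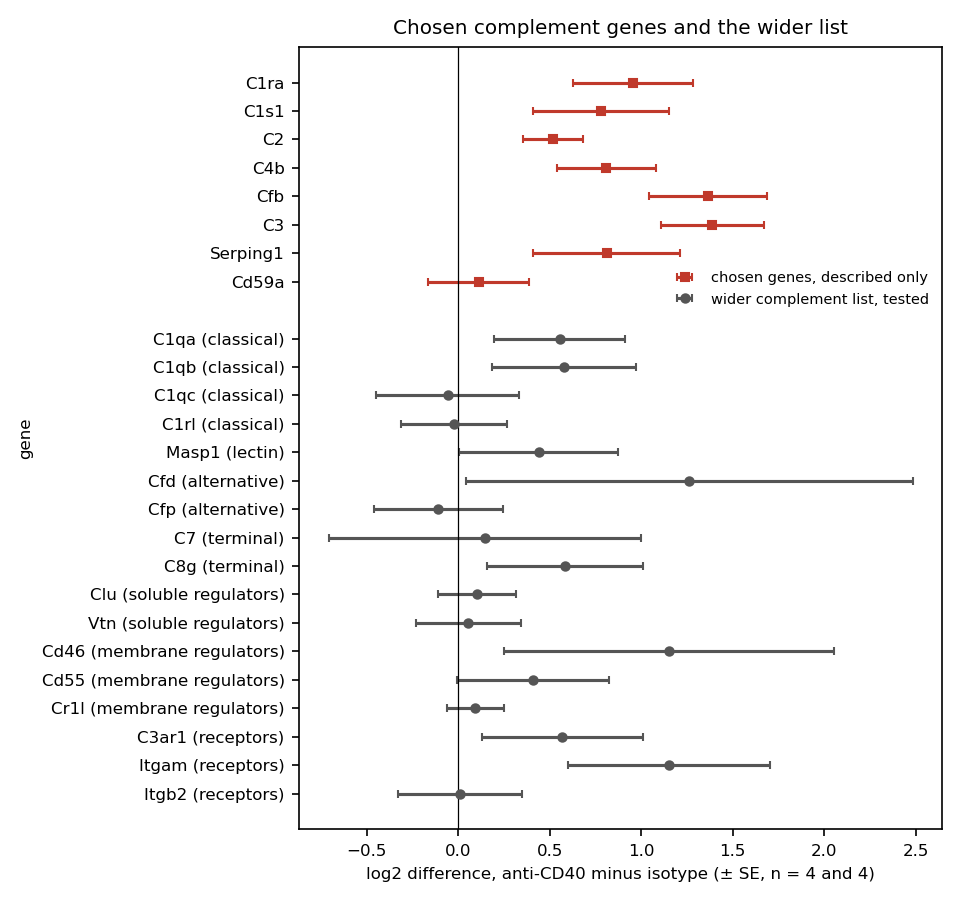
Log2 difference between agonistic CD40 mAb and isotype (horizontal axis, with SE, n = 4 and 4) for the 8 chosen complement genes with a tested value (squares, described only) and 17 of the 18 tested genes of the wider list (circles). The values of the wider list run from -0.11 for Cfp to 1.26 for Cfd, and those of the chosen genes from 0.11 for Cd59a to 1.39 for C3.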

How the data were processed

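RNA of CD45-CD31+ cells from 8 tumors was measured as 1 signal value per gene and library. The authors aligned reads to mm10, counted them per gene, divided the counts by DESeq2 size factors and deposited the resulting signal values (the submitters' processing notes name Bowtie2 2.2.1 and Partek 6.6). A correction for harvest day and a floor at 1, which the methods of the study describe, are not visible in the values. Of the values, 99.9% were whole multiples of 1 read within 0.1 read, which gave the depth of each library (2971689 to 64938728 reads on genes) and the reads for edgeR and DESeq2. Low genes are less precise in the 3 shallowest libraries, all isotype, and reads without molecular identifiers are not independent molecules. The limits at 0 cover counting error only. How reads matching several genes were counted is not given in the sources used here.

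Values were tested as log2(value + 1) with limma 3.58.1 in R 4.3.3 (trend, treatment as the only term), over the 12969 genes whose mean exceeded 10 in at least 1 group, with Benjamini-Hochberg adjustment over all of them. Fold changes on this scale understate those of low genes, while ratios and SD are of normalized reads. For single genes of the wider list, group means were compared by an exact permutation test (two-sided) over the 70 assignments of 4 and 4 libraries, which cannot give a p below 0.0286. The labels give separate mice, and no batch or pairing, so that harvest day, which the study's methods name, is not a term in these fits. The 9 genes, the wider list and the marker lists were chosen with earlier results of these data known, so that for the 9 no p is printed and their calls by the threshold are given as a description, not as tests. Genes named are all 9, their copies, the 3 most abundant tested genes of each role in the wider list and any with p of at most 0.05 (1 gene of the wider list counts among those tested but is not reported here), and the 5 genes with the profile most like C3 and like C1s1. Symbols of 96.2% of genes were matched to GENCODE M21. Sequence work used Biopython 1.88. The script for limma was tested on simulated data. Alternatives were pseudocounts of 0.1 and 10, all genes, filters of 8 and 50, quantile normalization, recomputed size factors, limma without trend or with robust moderation, edgeR 4.0.16, DESeq2 1.42.0 and leaving out each library. Division by the fibroblast sum was chosen after seeing the data.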

Additional observations from a re-analysis of the deposited data

Results flagged for a closer look

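Of 76 groups of 4 libraries checked for 1 library far from the others, 6 had such a library, where the 95% critical value of the gap is by its construction passed by chance in about 1 in 20. C3 was at 1217 normalized reads in isotype library 5L, while the other isotype libraries were at 2641 to 2826. The same library had the highest sum of melanoma markers, 93734 normalized reads against 38674 to 47721 in the other isotype libraries. Cfd was at 73.7 normalized reads in library 10N of agonistic CD40 mAb and at 1.8 to 3.89 in the other libraries of that group. The lymphatic endothelial marker sum was 4774 in library 6L of agonistic CD40 mAb, against 2915 to 3153 in the others. The hepatocyte marker sum, of which Alb and Ttr are at 0 everywhere, was 7.92 in 6L and 1.30 in isotype library 9L, with 0 in the other libraries of each group, where any read stands apart.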

How the results depend on the processing

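Without each library in turn, the number of the 9 complement genes past the threshold as higher ranged from 2 to 7, with 2 without isotype library 5L and 7 without 7N, while every other alternative and library left out gave 4 or 5. Over all 12969 genes tested, 166 were higher and 31 lower. Taking in all genes gave 331 higher and 93 lower, and the lower genes numbered 13 with a filter of 50, 63 with quantile normalization, 57 without the trend, 47 with edgeR and 58 with DESeq2. Leaving out a library gave 124 to 234 higher and 27 to 123 lower, the latter without 5L and 52 without 9L. On the wider list 0 genes were higher, against 2 without the trend (C8g and Itgam) and 0 to 2 when a library was left out (Cd46 and Itgam without 7N, C1qb and Itgam without 9L). The cause was not tested. Of 152 log2 differences of the 8 tested complement genes under the alternatives, 1 changed sign, that of Cd59a without 5L, and of 309 for 17 genes of the wider list, 25 did. No paired analysis was possible because the labels number no replicates. Among the 9 genes, depth limits C1s2 most, with 3 reads in the isotype group against at least 870 for the others.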
